A study of Capra hircus with 198 samples.

Results

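Intronic lncRNAs are long noncoding RNAs whose exons lie wholly inside an intron of another gene, here called the host. They were taken as every record of the authors' lncRNA annotation whose name is the host's symbol followed by IT and a number, and that is also a row of the deposited count table. This gave 6197 members in 3400 host genes, out of 39734 features and 14511 annotated lncRNAs. The series is an atlas of total RNA from 33 tissues of the same 6 adult female Murciano-Granadina goats, a Spanish dairy breed of Capra hircus, with 1 library per tissue and goat. Lactating animals were goats 2, 3 and 6, and dry animals, which were not producing milk, were goats 54, 64 and 73. The labels give no agent, genotype, age in years or stage of the dry period, so state and the particular animals cannot be told apart. Every goat gave all 33 tissues, so tissues come from the same goats and states from different goats.

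An intron is spliced out of the host's first transcript, and some introns also hold separate RNAs with exons and splice sites of their own. Such RNAs are known to be transcribed either from a start site of their own or out of the host's transcript, and only a few have a known role. In brain, where long genes of synapses and cell adhesion are highly active, introns are a rich source of noncoding RNA. A count for a same-strand intronic lncRNA can include reads of the host's unspliced transcript, and gene-level counts cannot tell these apart.

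All transcripts of the members carry the class code of the annotation software for a transcript inside a reference intron. Of the 6197 members, 6122 lie inside the span of the host as RefSeq places it in the goat assembly ARS1.2, 75 have a host that is not placed there on a named chromosome, and 0 lie outside. The host's strand could be read for 1005 members in 476 hosts, from antisense lncRNAs named for the same host, and all 1005 were on the host's strand. The median member had 371 exonic bases, from 200 to 22740, within a median span of 867 bases. There were 5578 members with 2 exons, 587 with 3 or more and 32 with 1. A single member was annotated in 2100 hosts, 1300 hosts had 2 or more, and 17 had 10 or more. DLG2, which encodes a scaffold protein of the synapse, had the most, with 15. The positions below are those of the authors' annotation, whose build is not named, and chromosome numbers come from the host's RefSeq entry.

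Depth ranged from 1309071 to 8967448 counts per library, with a median of 4631624, so 3 counts correspond to 2.29 CPM (counts scaled to the library total) in the shallowest library and 0.335 CPM in the deepest. Tissue markers were checked first: of 53 marker and tissue pairs, 38 were highest in their own tissue and 50 were among its 5 highest. A set of 24 libraries in 14 tissues correlated best with another tissue. Among them were 5 of the 6 adenohypophysis libraries, closest to neurohypophysis, and the 3 lactating libraries labelled pineal gland, closest to hypothalamus or rhinencephalon. The summary results are given with and without these 24 libraries.

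Most members were scarce. Of 6197, 3981 (64.2%) reached a mean of 1 CPM in at least 1 tissue, against 81.5% of the other features. A mean of 10 CPM was reached by 1660 members and 100 CPM by 91, while 4 were at 0 in all libraries. There were 136 members with a peak between 1 and 1.1 CPM and 154 between 0.9 and 1 CPM. Even so, 1641 of the 6197 members had at least 1 CPM in all 33 tissues. The members together held 2.91% of all counts on average, from 0.801% to 5.04% in single libraries.

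That share followed the tissue. The cerebellar hemisphere had the highest share, 4.33% ± 0.226 (SD, n = 6), and all its 6 libraries lay between 4.09% and 4.69%. Striated muscle had the lowest shares, with 1.08% ± 0.238 in masseter, 1.19% ± 0.227 in heart left ventricle and 1.46% ± 0.294 in diaphragm. The 8 brain tissues averaged 3.59%, 3.54% and 3.71% in goats 2, 3 and 6 and 3.68%, 3.88% and 3.48% in goats 54, 64 and 73. The 22 tissues outside the brain, pituitary and pineal gland averaged 2.69%, 2.78% and 2.57% in the lactating goats and 2.35%, 2.28% and 2.35% in the dry goats. Brain was higher in 6 of 6 goats, by 1.14 percentage points on average (exact two-sided sign-flip test, p = 0.03125, the smallest that 6 goats allow). Without COPG2-IT1, the most abundant member, the difference was 0.842 points with the same p, and without the libraries closest to another tissue it was 1.17 points. Over 33 tissues the lactating goats averaged 2.99% ± 0.0449 and the dry goats 2.83% ± 0.0482 (n = 3 each). These groups did not overlap, and the exact permutation test gave p = 0.1, the smallest that 3 against 3 allow. The difference was 0.154 points, and 0.168 points without the libraries closest to another tissue.

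**Figure D1:**
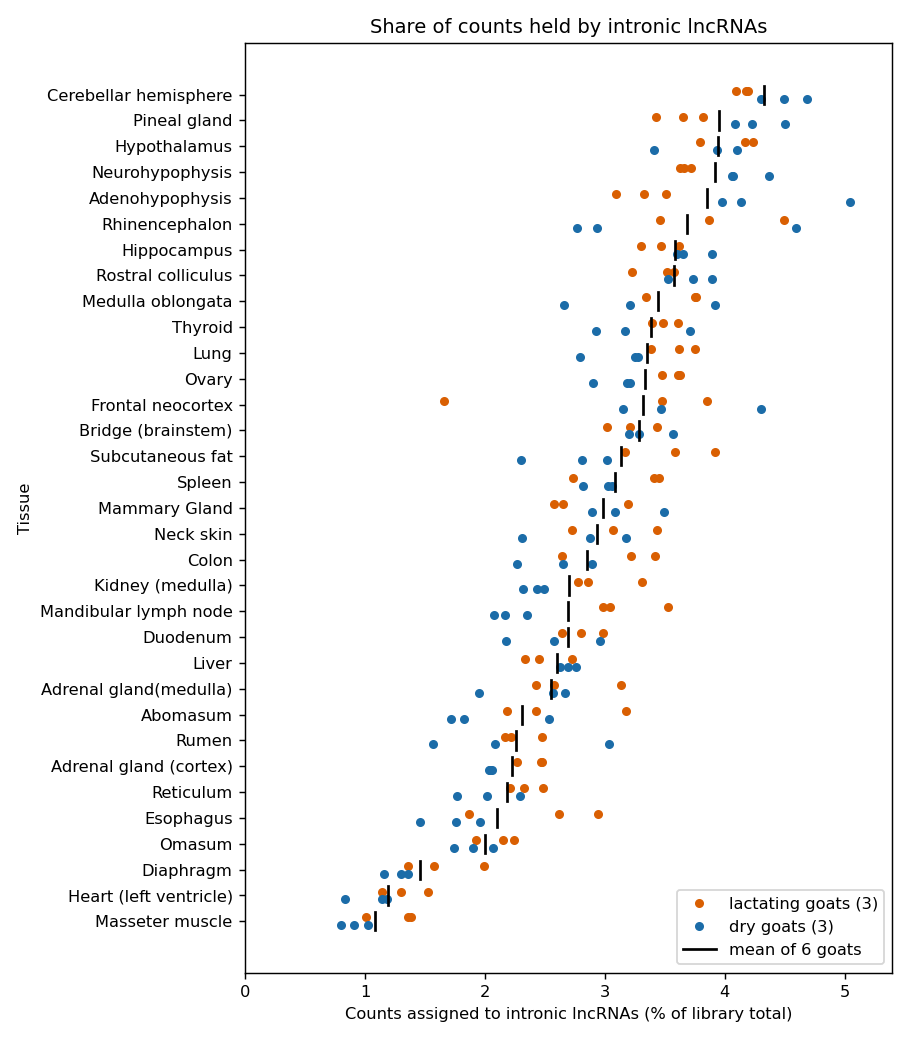
Share of each library's counts assigned to the 6197 intronic lncRNAs (x axis, % of the library total) in 33 tissues ordered by their mean (y axis), with 1 point per goat coloured by state and a bar at the mean of 6 goats. The cerebellar hemisphere (4.33%) is at the top and masseter muscle (1.08%) at the bottom.

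The most abundant member by far was COPG2-IT1, inside COPG2, which encodes a subunit of the COPI coat of Golgi vesicles. COPG2-IT1 spans chromosome 4, 25842872 to 25868708, on the plus strand, with 7605 exonic bases and up to 2 exons per transcript. In hypothalamus it measured 5197, 3352 and 3839 CPM in goats 2, 3 and 6 and 4931, 6760 and 4044 CPM in goats 54, 64 and 73. In heart it measured 1.99, 6.79 and 2.06 CPM in the lactating goats and 1.97, 3.33 and 0.781 CPM in the dry goats. The lowest hypothalamus library was thus far above the highest heart library. All 8 brain tissues, both lobes of the pituitary and the pineal gland had higher means than any of the other 22 tissues. Adrenal medulla came next, at 269 CPM ± 207 (SD, n = 6), and its goats ranged from 36.6 to 563 CPM. The host gene ran in parallel, from 608 CPM ± 162 in hypothalamus to 1.92 CPM ± 1.37 in masseter, and the Spearman correlation of lncRNA and host over the 33 tissue means was 0.945.

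**Figure D2:**
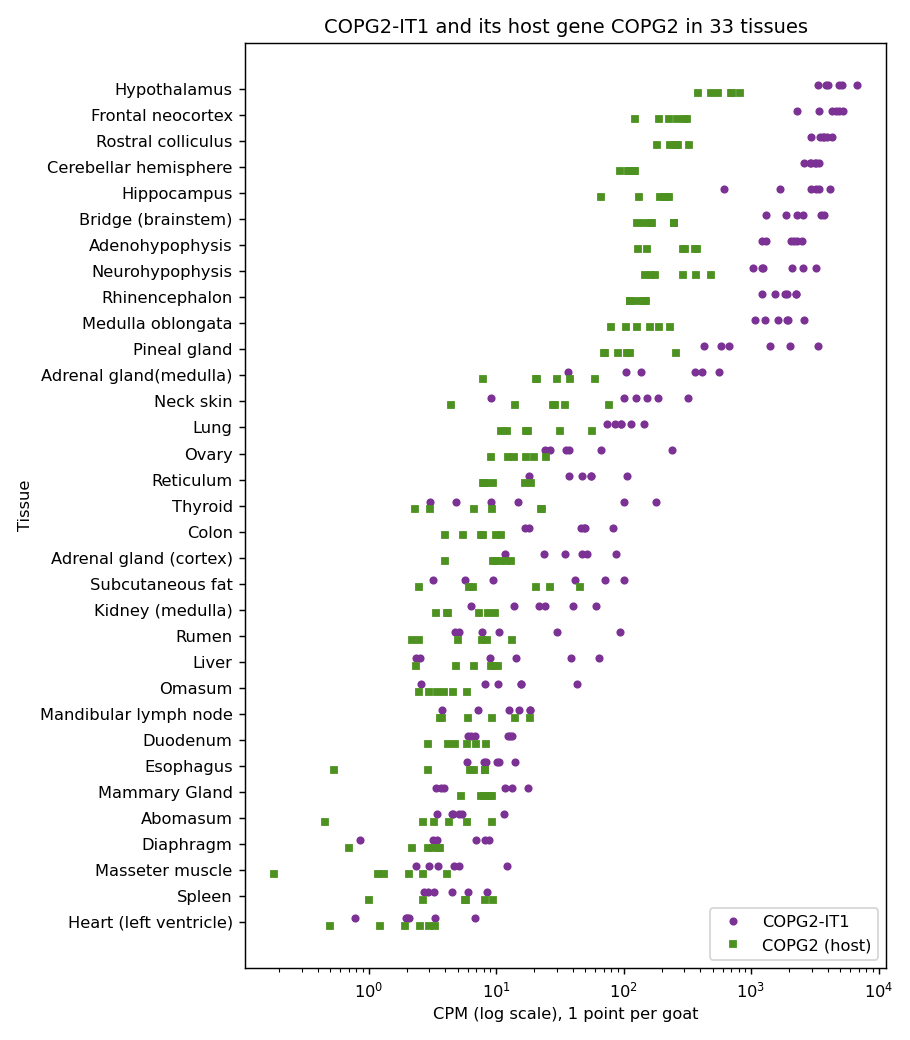
CPM on a log axis of COPG2-IT1 (circles) and of its host gene COPG2 (squares) in 33 tissues ordered by the mean of COPG2-IT1, 1 point per goat. The 11 tissues of brain, pituitary and pineal gland form the upper block for both RNAs, topped by hypothalamus (4687 CPM for COPG2-IT1).

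Other abundant members were far more even across tissues. CLASP1-IT1, in the gene of a protein that stabilises microtubule ends, averaged 226 CPM, from 106 to 295 CPM. EFEMP1-IT1, in a gene of the fibulin family of matrix proteins, averaged 188 CPM and was highest in thyroid, where goats 2, 3 and 6 had 474, 529 and 446 CPM and goats 54, 64 and 73 had 367, 511 and 444 CPM. The thyroid values overlapped between the states. SESN1-IT1, in the gene of a stress-induced sestrin, had the longest exonic sequence of all members, 22740 bases, and tissue means from 62.7 to 298 CPM. Per kilobase of exon the order changed: NRXN3-IT4, with 403 exonic bases in the gene of the synaptic adhesion protein neurexin, had 359.5 CPM per kilobase, and COPG2-IT1 had 121.8.

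Even expression was typical once a member was abundant enough to measure. Tau, which is 0 for equal expression in all tissues and 1 for expression in 1 tissue, had a median of 0.425 over the 3981 members, computed on log2(CPM + 1). It fell with abundance, from 0.741 in members with a peak of 1 to 2 CPM to 0.191 in those with 30 CPM or more, and a pseudocount of 0.1 in place of 1 gave a median of 0.269. Antisense lncRNAs had a median tau of 0.279 and overlapping lncRNAs 0.275. Their median peaks, however, were 78.1 and 77.8 CPM against 7.12 CPM for intronic lncRNAs. Median tau was also below that of members in convergent (0.289), sense upstream (0.296), intergenic (0.3475) and sense downstream lncRNAs (0.398). It was above that of members in divergent lncRNAs (0.513) and in genes outside the lncRNA annotation (0.482). The median peaks of these higher sets were 18.8 and 9.59 CPM. Without the libraries closest to another tissue the median of members was 0.442, and in the authors' deposited table it was 0.446.

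Members were sought with a peak tissue mean at least 5 times the next and every peak-tissue library above every library elsewhere. Only 21 members met both conditions, and 10 of these peaked in thyroid. The second condition leaves out RBFOX1-IT3, described below, whose mammary gland values were high in lactating goats only. PRTG-IT1, in the gene of the cell adhesion protein protogenin, had 451, 561 and 528 CPM in the thyroid of goats 2, 3 and 6 and 292, 256 and 168 CPM in goats 54, 64 and 73. The next tissue, kidney medulla, had 38.7 CPM, and the thyroid values of lactating goats all exceeded those of dry goats, although this difference passed no test in thyroid. CPNE1-IT1, in the gene of the calcium-dependent membrane-binding protein copine, had 67.2 CPM ± 21.7 in thyroid and 6.40 CPM in the next tissue. Its host CPNE1 peaked elsewhere, in mandibular lymph node, and the correlation of CPNE1-IT1 and CPNE1 was -0.188. TRDN-IT1, in the gene of triadin, a calcium-release protein of muscle, had 479 CPM ± 80.2 in heart and 58.7 CPM in the next tissue, hippocampus, and was chosen after its values were seen.

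Liver and cerebellum each had members that were near zero elsewhere. CFAP77-IT1, in a gene of the cilium axoneme, had 13.4, 12.5 and 10.6 CPM in the liver of goats 2, 3 and 6 and 5.56, 9.72 and 12.8 CPM in goats 54, 64 and 73. No other tissue exceeded a mean of 0.440 CPM, and the host CFAP77 had at most 0.881 CPM in any tissue. SLC1A2-IT1 had 11.3 CPM ± 5.60 in liver, while its host, the glutamate transporter of astrocytes, peaked in frontal neocortex at 68.4 CPM. ACOT7-IT1, in the gene of an acyl-CoA thioesterase, shared its peak with the host: 6.44 CPM ± 3.04 in the cerebellar hemisphere, where ACOT7 had 19.8 CPM. RSPO3-IT1, in the gene of a Wnt-enhancing R-spondin, had 7.88 CPM ± 3.47 in subcutaneous fat and its host peaked in ovary at 7.87 CPM.

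Members and hosts often differed in their best tissue. The peak tissue was the same for 671 members (16.9% of 3981). The cerebellar hemisphere was the peak of 601 members, the pineal gland of 260, the neurohypophysis of 228 and the thyroid of 226. Of the hosts of these 3981 members, each counted once, 201, 70, 93 and 112 peaked there. The same count over all features was not made, so a trait of members cannot be read from these numbers. The median Spearman correlation between a member and its host over 33 tissue means was 0.356 in the 3953 pairs in which both reached 1 CPM in a tissue. It exceeded 0.8 in 147 pairs, was below 0 in 703 (17.8%) and below -0.5 in 48. The points share libraries and depth: scaling by TMM, a trimmed mean of ratios between libraries, lowered the median to 0.226, and within single goats it lay between 0.198 and 0.229. Without the libraries closest to another tissue it was 0.334. Members of the same host correlated with each other with a median of 0.374 over 2789 pairs in 796 hosts. Antisense lncRNAs had a median of 0.533 with the gene they are named for and overlapping lncRNAs 0.465. The gap was not the same at all levels, since at peaks of 1 to 2 CPM intronic pairs had 0.462 and antisense pairs 0.281, and at 30 CPM or more they had 0.366 and 0.585.

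**Figure D3:**
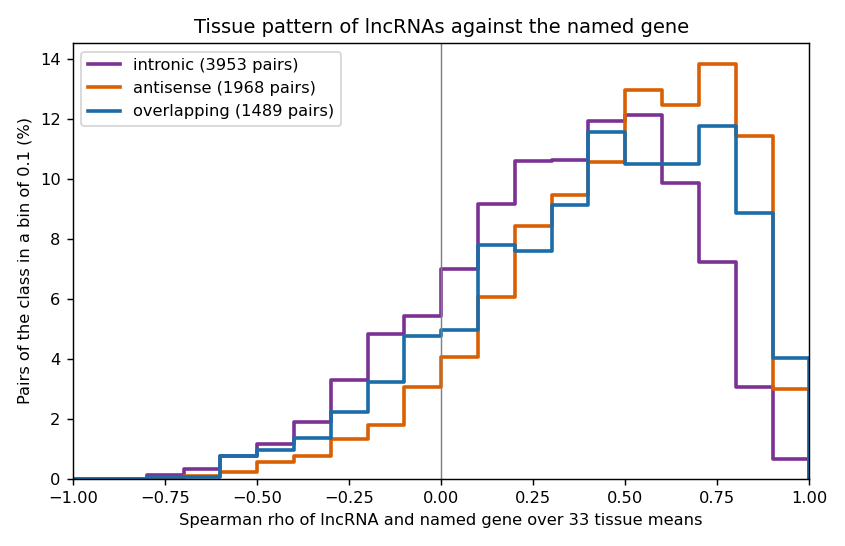
Distribution of the Spearman correlation between a lncRNA and the gene it is named for over 33 tissue means (x axis, bins of 0.1) as percent of the pairs of each class (y axis), for intronic, antisense and overlapping lncRNAs. The intronic curve lies to the left of the others (medians 0.356, 0.533 and 0.465) and 17.8% of its pairs are below 0.

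Among pairs in which both reached 5 CPM in a tissue, the closest match between a member and its host was NUDT6-IT1, on chromosome 17 from 36281234 to 36290551 in the gene of a nudix hydrolase. NUDT6-IT1 and NUDT6 had a correlation of 0.988, and both peaked in subcutaneous fat, at 217 CPM ± 100 for the lncRNA and 231 CPM for the host. PPID-IT1, in the gene of a cyclophilin, peaked with PPID in liver (correlation 0.957). MTMR1-IT1, in the gene of a lipid phosphatase, followed MTMR1 (0.952), with the highest means in brain. SALL1-IT1, in the gene of a developmental transcription factor, and its host both peaked in the libraries labelled pineal gland (0.945). LOC102176353-IT2 peaked in mandibular lymph node at 888 CPM ± 355, as did its host, a locus with no gene name, at 1763 CPM (0.945).

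At the other end stood members that were high where the host was low. CAB39-IT1, in the gene of a scaffold of the kinase LKB, had its highest mean in the cerebellar hemisphere, 45.3 CPM ± 10.4, while CAB39 peaked in reticulum at 52.0 CPM, and their correlation was -0.724. FAF1-IT2 and FAF1-IT1, in the gene of an adaptor for ubiquitin-bound proteins, had -0.712 and -0.673. FAF1 peaked in colon, FAF1-IT2 in the pineal gland libraries and FAF1-IT1 in rhinencephalon. MSRB3-IT5 (-0.707), IBTK-IT2 (-0.657) and KPNA4-IT3 (-0.653), in genes of a methionine sulfoxide reductase, a kinase inhibitor and a nuclear import receptor, peaked in the pineal gland libraries, hypothalamus and neurohypophysis. Their hosts peaked in subcutaneous fat, esophagus and diaphragm.

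Within 1 host the members differed in pattern. In DLG2, 11 of the 15 members reached 1 CPM in a tissue, and their correlations with DLG2 ran from -0.110 to 0.577 with a median of 0.337. DLG2 itself was highest in frontal neocortex at 20.6 CPM. DLG2-IT10 was the most abundant, with 56.5 CPM in adrenal cortex, and DLG2-IT6 peaked in liver at 19.3 CPM. DLG2-IT3 was highest in the cerebellar hemisphere at 36.6 CPM, with the correlation of 0.577, and DLG2-IT12 was highest there too, at 11.9 CPM, with -0.110.

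Brain against the 22 other tissues was tested with limma on 12 values per feature, the mean log2 CPM over brain tissues and over other tissues in each goat. This fit did not pair the values by goat, and the goat as a block was run as an alternative. Of 3981 members, 2521 passed an adjusted p of 0.05 (63.3%), against 67.0% of the 31305 features tested. Of the members, 1777 were higher in brain (44.6%, against 34.4% of all features) and 744 lower (18.7%, against 32.6%). The median difference of members was 0.21 on the log2 scale and that of all features 0.01. Without the libraries closest to another tissue 2515 members passed, 1791 of them higher in brain. All lncRNA classes but the overlapping one had more calls higher than lower in brain. The shares higher were 44.6% of intronic, 42.0% of antisense, 53.1% of intergenic and 58.0% of sense upstream lncRNAs. They were 45.7% of divergent, 51.0% of convergent and 48.0% of sense downstream lncRNAs, and 28.1% of genes outside the lncRNA annotation. Overlapping lncRNAs were higher in 33.2% and lower in 37.1%, with a median of -0.04. Calls shown here come from 1 library per tissue and goat, and in bulk tissue fewer cells of a type and less RNA per cell cannot be told apart.

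The largest rise in brain was that of COPG2-IT1, by 7.13 ± 0.146 log2 units (SE, adjusted p = 1.01e-15). Its brain means were 2741, 2189 and 3090 CPM in goats 2, 3 and 6 and 3327, 3704 and 3232 CPM in goats 54, 64 and 73, against 36.2 to 56.8 CPM outside. COPG2 rose by 4.56 ± 0.146. KCNA6-IT1, in the gene of a voltage-gated potassium channel, averaged 15.9 CPM ± 5.0 in brain and 0.00909 CPM outside, and its host rose with it. ASIC2-IT1, in the gene of an acid-sensing ion channel, had brain means of 17.9, 13.7 and 21.3 CPM in the lactating goats and 57.0, 34.1 and 33.5 CPM in the dry goats, against at most 0.303 CPM in other tissues.

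EPB41-IT5, IGF2R-IT2 and CCDC6-IT2 rose in brain without their hosts. EPB41-IT5, in the gene of a membrane skeleton protein first known from red cells, had brain means of 38.0 to 45.4 CPM in 6 goats and 4.23 to 6.68 CPM outside (log2 difference 3.60 ± 0.098). EPB41 fell in brain by 1.09 ± 0.122 log2 units. IGF2R-IT2 averaged 9.34 CPM ± 1.22 in brain and 0.661 CPM ± 0.272 outside, while IGF2R, the receptor that clears insulin-like growth factor, fell by 1.21 ± 0.242. CCDC6-IT2 averaged 6.32 CPM ± 0.897 against 0.333 CPM ± 0.170, and its host CCDC6 had a log2 difference of -0.19 with adjusted p = 0.169. In none of these 3 did any goat's brain mean overlap the other tissues.

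The 6 members that fell most in brain did so with the host, and all 6 hosts fell too. LOC102176353-IT2 averaged 0.314 CPM ± 0.366 in brain and 97.7 CPM ± 20.8 outside, and its host fell by 3.68 ± 0.309 log2 units. LOC102183919-IT3 was highest in diaphragm and masseter (18.5 and 16.0 CPM) and fell in brain by 2.39 ± 0.160. FUBP1-IT1, in the gene of a DNA-binding regulator of transcription, peaked in diaphragm with FUBP1. CSK-IT1, in the gene of a kinase that restrains Src kinases, and RREB1-IT4, in that of a zinc finger transcription factor, fell by 1.94 ± 0.165 and 2.01 ± 0.149. PPID-IT1 fell by 1.98 ± 0.173 and PPID by 1.70 ± 0.098.

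The direction of member and host was compared over the 3953 pairs. Both were higher in brain in 720 pairs and both lower in 491. The member was higher and the host lower in 585, and the member lower and the host higher in 86. The log2 ratio of member to host differed between brain and other tissues in 2682 pairs (67.8%), 1785 higher and 897 lower in brain, against 65.4% of 7551 lncRNA and gene pairs of 4 classes (40.0% higher and 25.3% lower). Without the libraries closest to another tissue 2719 pairs differed, 1814 of them higher in brain. The host differed by at least 1 log2 unit in 1337 pairs (33.8%) and the member in 370 (9.36%), where a host with several members is counted once for each. The prior count draws low values toward 0. Among the 1266 pairs in which both reached 10 CPM the counts were 454 and 142.

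**Figure D4:**
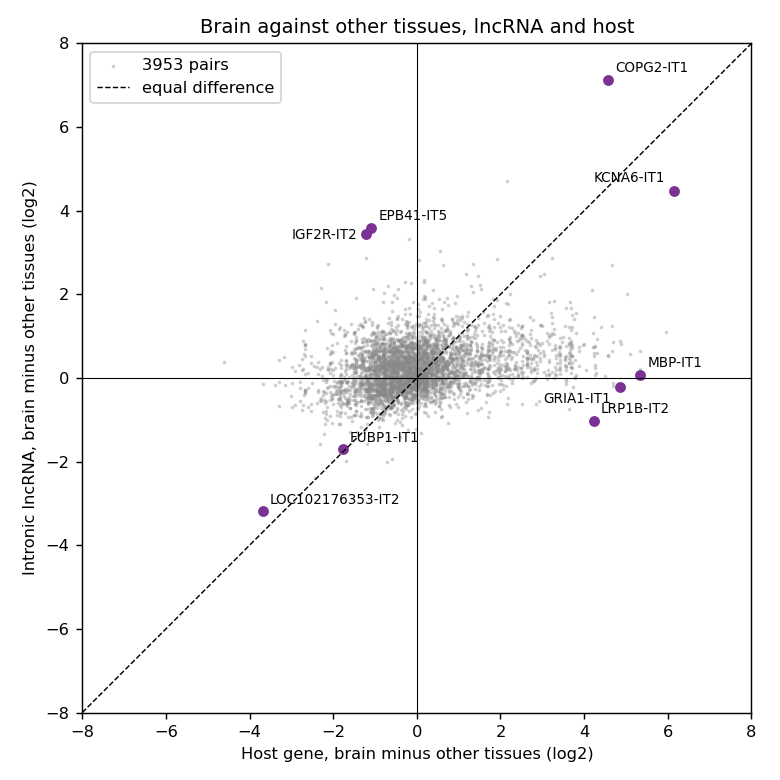
Difference between brain and other tissues on the log2 scale for the host gene (x axis) and the intronic lncRNA (y axis) in 3953 pairs, with named members in purple and a dashed line of equal difference. The cloud is wider along the host axis, where the host is at least 1 log2 unit from 0 in 33.8% of pairs and the member in 9.36%.

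The 5 largest falls of the ratio in brain were in 4 hosts known from neurons or glia, all of which rose in brain. Hosts differed more than members did, so ranking by the ratio itself picks out hosts that rise in brain. MBP-IT1 and MBP-IT2 lie in the gene of myelin basic protein, which averaged 177 CPM ± 50.6 in brain and 2.53 CPM ± 0.296 outside. MBP-IT1 measured 2.57 CPM ± 0.357 in brain and 3.13 CPM ± 0.893 outside, so the ratio to the host was lower in brain by 5.27 ± 0.233 log2 units. GRIA1, an AMPA-type glutamate receptor, averaged 24.4 CPM ± 3.97 in brain and 0.329 CPM ± 0.177 outside, whereas GRIA1-IT1 had 4.25 CPM ± 0.576 and 4.57 CPM ± 0.877. LRP1B, a large receptor of the LDL family, rose by 4.22 ± 0.214, while LRP1B-IT2 fell by 1.02 ± 0.126. SLC1A2-IT3 measured 9.89 CPM ± 1.04 in brain and 10.8 CPM ± 1.47 outside, while SLC1A2 rose by 4.69 ± 0.174.

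Members whose ratio to the host rose most in brain included EPB41-IT5 and IGF2R-IT2, described above, with CREG1-IT1 and LOC102187632-IT1. IGF2R and LOC102187632 peaked in liver, EPB41 in lung and CREG1 in omasum. CREG1-IT1, in a gene of a lysosomal glycoprotein, had 6.72 CPM ± 1.48 in brain and 1.37 CPM ± 0.167 outside, and its host fell by 2.28 ± 0.260. LOC102187632-IT1 itself did not pass the test between brain and other tissues (1.29 CPM ± 0.548 and 0.938 CPM ± 0.284, adjusted p = 0.0651), and LOC102187632 fell by 4.60 ± 0.190.

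Members were also counted by group of host, to be read against the 34.4% higher and 32.6% lower of all features and the 44.6% and 18.7% of all members. The groups were formed only by how the host's symbol begins, so each can hold genes of other functions than its name gives. Genes of neural adhesion, scaffolds and guidance held 134 members that reached 1 CPM, of which 87 were higher and 10 lower in brain. Their median log2 difference was 0.47, that of their 51 hosts was 1.73, and the ratio was lower in 108 of 134. Synaptic ion channels and receptors held 83, of which 42 were higher and 4 lower, with medians of 0.32 for members and 1.71 for hosts. Genes of extracellular matrix and adhesion to it held 51, with 20 higher and 17 lower, although their hosts had a median of -0.89 and the ratio was higher in 33. Hosts of transcription and chromatin held 175, with 65 higher and 50 lower. Members in genes of muscle and cytoskeleton (77) had 37 higher and 10 lower, while among their 39 hosts 12 were higher and 17 lower. Kinase, phosphatase and GTPase regulator genes held 253, with 108 higher and 43 lower, and transporters 109, with 36 higher and 26 lower. The shares higher in brain for transporters, for transcription and chromatin and for matrix were near that of all features.

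Lactating and dry goats were compared within each tissue with edgeR's quasi-likelihood test on 3 against 3. Over 33 tissues there were 440 calls among 67224 member tests (0.655%), 188 higher and 252 lower in lactating goats, against 1.90% of 578253 tests of all features (0.925% higher and 0.976% lower). In each of the 27 tissues in which any feature was called, the percent of members called was below that of all features. At least 1 member was called in 18 of these tissues. In some others hardly any feature was called, such as 0.00634% of features other than members in frontal neocortex. There a lower percent of members was nearly certain and says little. At equal abundance the same order held from under 5 CPM up to 100 CPM, for example 0.745% against 2.51% at 10 to 30 CPM, but at 100 CPM and more members were called in 6.10% of 459 tests and other features in 5.22%. The calls fell on 387 members, of which 339 were called in 1 tissue. Without goat 2, 54 or 64 the count was 243, 235 or 252, and without the libraries closest to another tissue it was 333. That last count leaves out 5 tissues in which too few libraries of a state remained to test. They were pineal gland, adenohypophysis, neurohypophysis, esophagus and neck skin, with 81, 17, 14, 0 and 0 of the 440 calls.

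Kidney medulla (145 calls, 6.89% of members against 15.1% of all features), ovary (84, 3.95% against 11.7%) and pineal gland (81, 3.56% against 7.97%) made up 310 of the 440 calls. In these tissues the markers of the tissue moved with state. SLC12A1 and UMOD of the kidney's thick ascending limb summed to 279 to 1195 CPM in lactating and 67.5 to 105 CPM in dry kidney medulla. FOXL2 and AMH of the ovary's follicle cells summed to 4.74 to 14.8 CPM in lactating and 0 to 0.834 CPM in dry ovary. The pineal marker TPH1 was at 57.1 to 125 CPM in dry libraries and at 0, 0 and 0.419 CPM in the lactating libraries labelled pineal gland, and AANAT, the other pineal marker, was at 0 in 5 of 6. Their part in the calls was not tested, and 130 calls lay outside these 3 tissues.

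The host was tested in 360 of the 440 calls and was itself called in 132, in the same direction in 119. In kidney medulla CARMIL1-IT1, in the gene of a regulator of actin capping, measured 8.27, 14.8 and 5.39 CPM in lactating goats 2, 3 and 6 and 214, 256 and 228 CPM in dry goats 54, 64 and 73. The groups lay far apart, and CARMIL1-IT1 fell in lactating goats by 4.95 ± 0.343 log2 units (adjusted p = 4.87e-06). CARMIL1 fell by 3.17 ± 0.234. ANK3-IT1, in the gene of ankyrin G, had 6.87, 5.85 and 5.96 CPM against 58.3, 40.7 and 36.8 CPM, and ANK3 fell too, by 1.39 ± 0.289. LYRM4-IT1, in a gene of iron-sulfur cluster assembly, had 10.1 to 21.5 CPM in lactating goats against 494, 453 and 270 CPM in dry goats. Its host LYRM4 was too low to test, at 1.84 CPM ± 0.891 and 0.572 CPM ± 0.525.

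In the mammary gland RBFOX1-IT3 measured 364, 367 and 362 CPM in lactating goats and 2.82, 1.80 and 4.02 CPM in dry goats. RBFOX1-IT3 lies on chromosome 25 from 5644045 to 5659540 and has 219 exonic bases in 2 exons, inside the gene of a splicing factor of neurons and muscle. It rose by 7.08 ± 0.312 log2 units (adjusted p = 3.32e-05), where 1.05% of all features in the mammary gland were called. VAV2-IT1, named after its values were seen, rose more in the same gland, by 8.36. The host was listed at 0 in all 3 lactating glands and at 0.141 CPM ± 0.123 in dry glands. The milk protein genes CSN2 and LALBA summed to 7284 to 9687 CPM in lactating glands and 0 to 0.205 CPM in dry glands. The next tissue for RBFOX1-IT3, the cerebellar hemisphere, had 9.36 CPM.

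In heart 2.87% and in adrenal cortex 3.43% of all features were called. UBAC2-IT1, in the gene of a membrane protein with a ubiquitin-associated domain, was at 0 in the heart and the adrenal cortex of all 3 lactating goats. In dry goats it measured 9.71, 10.2 and 10.5 CPM in heart and 22.8, 23.6 and 25.6 CPM in adrenal cortex. Against 3 counts over the lactating group, this was at least 71.5-fold lower in heart and at least 115-fold lower in adrenal cortex (adjusted p = 7.84e-05 and 0.000143). Zeros were common for this member, in 73 of 99 lactating and 57 of 99 dry libraries. Heart markers TNNI3 and MYL2 overlapped between states, whereas in adrenal cortex the medulla markers CHGA and TH summed to 8.39 to 57.5 CPM in lactating and 110 to 262 CPM in dry goats, and their part was not tested. NCAM1-IT2, in the gene of a neural adhesion molecule, rose in lactating hearts, with 17.1, 5.69 and 16.8 CPM against 0.369, 0.370 and 0.223 CPM.

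In the pituitary RPN2-IT1, in the gene of a subunit of the enzyme that glycosylates new proteins, rose in both lobes, where 2.73% (neurohypophysis) and 2.83% (adenohypophysis) of all features were called. It had 265, 132 and 159 CPM in the neurohypophysis of lactating goats and 34.1, 25.2 and 24.9 CPM in dry goats (2.85 ± 0.239 log2 units). In adenohypophysis it had 177, 88.0 and 144 CPM and 17.1, 32.7 and 26.6 CPM (2.65 ± 0.268). RPN2 itself, at 3.57 to 6.54 CPM in these 4 groups, passed the test in neither lobe. Most of these adenohypophysis libraries correlated best with the neurohypophysis, and growth hormone (GH1) was at 650 to 2004 CPM in lactating and 156 to 432 CPM in dry adenohypophysis. GH1, the adenohypophysis marker, was also at 424 to 1681 CPM in lactating and 411 to 818 CPM in dry neurohypophysis. How far the libraries of the lobes hold separate tissue was not tested. Without the libraries closest to another tissue, adenohypophysis had no lactating library and neurohypophysis 1 dry library, and no test was run there.

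In the libraries labelled pineal gland PLEKHM3-IT1 had 3.01, 4.03 and 1.94 CPM in lactating and 277, 206 and 207 CPM in dry goats, and its host went from 1.24 CPM ± 1.66 to 550 CPM ± 85.5. TBL1X-IT3, in the gene of a transcriptional corepressor, had 7.28, 5.53 and 8.04 CPM against 232, 219 and 172 CPM, while TBL1X did not pass (adjusted p = 0.51). Both directions rest on lactating libraries in which the pineal marker TPH1 was near 0. All of these lactating libraries correlated best with another tissue, so no test without such libraries was run there. In medulla oblongata ASIC2-IT1 was the only member called, with 27.3, 21.4 and 16.8 CPM in lactating and 113, 74.3 and 67.6 CPM in dry goats, where 0.123% of all features were called.

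**Figure D5:**
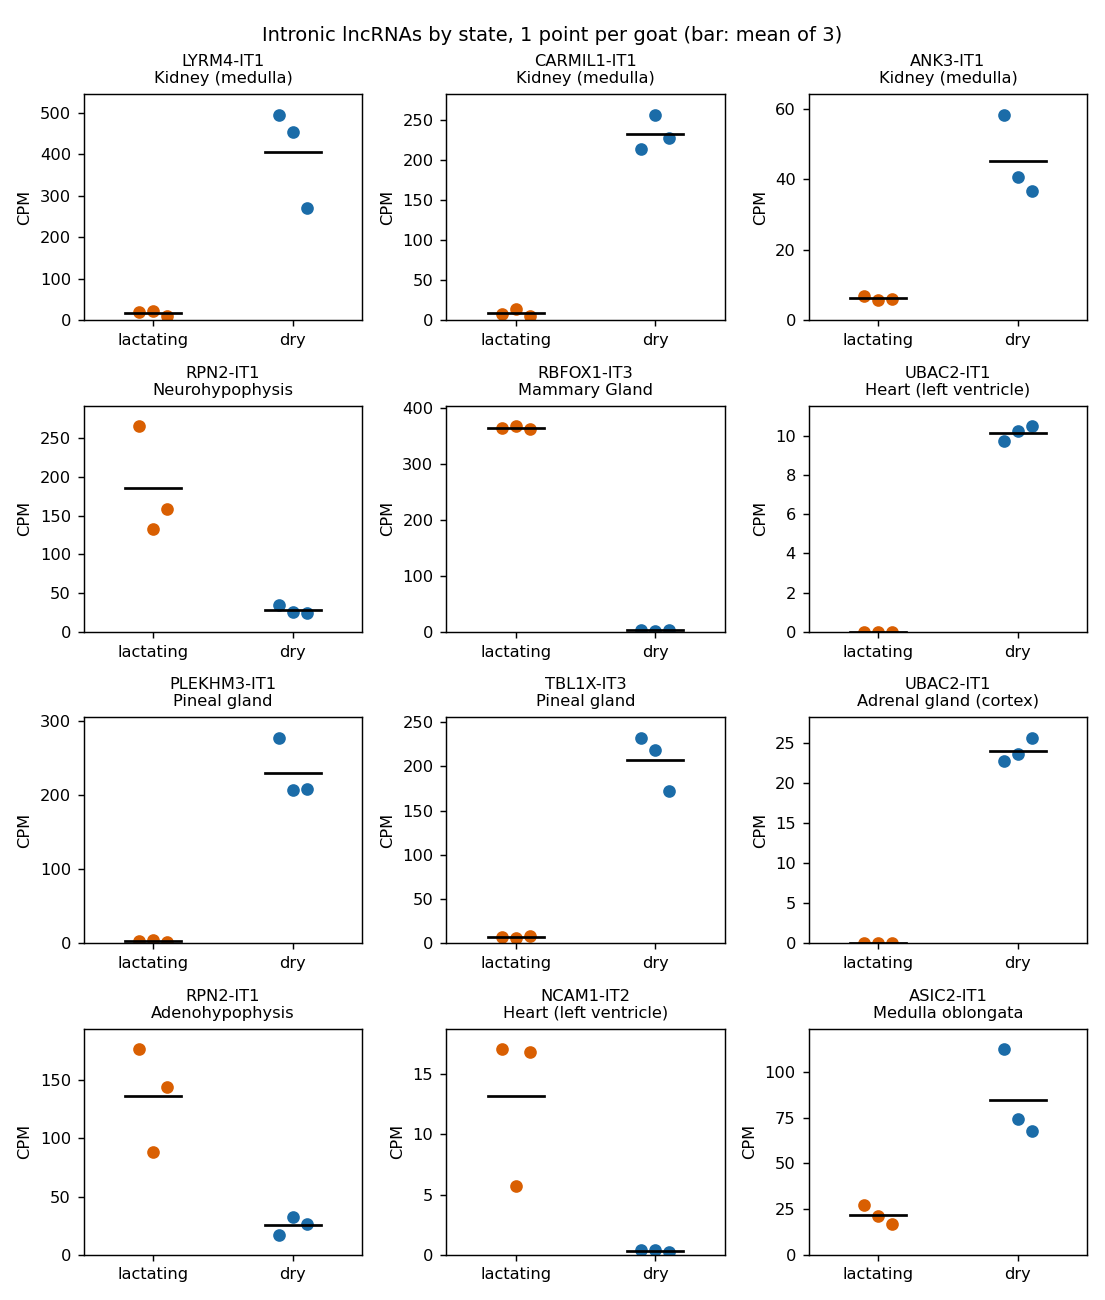
CPM of 10 intronic lncRNAs in the 12 member and tissue combinations named for state (y axes, each from 0), with 1 point per goat in lactating and dry goats and a bar at the mean of 3. In no panel do the groups overlap, and RBFOX1-IT3 in mammary gland has means of 365 against 2.88 CPM.

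Over the whole body, each goat's mean over 33 tissues was compared between states with limma. Of 3981 members 135 passed (3.39%), 96 higher and 39 lower in lactating goats, against 8.53% of all 31305 features (4.02% higher and 4.51% lower). With library totals in place of TMM the counts were 286, of which 272 were higher, as the median of all features moved from -0.03 to 0.05 log2 units. Leaving out any 1 goat left 20 (goat 64) to 85 (goat 6), and without the libraries closest to another tissue 111 passed, 81 of them higher. The lowest adjusted p was that of LOC102173776-IT1, with 14.6, 14.1 and 13.6 CPM in lactating and 8.61, 8.99 and 8.58 CPM in dry goats (0.57 ± 0.0715 log2 units, adjusted p = 0.0029). Its host had 1.18 CPM ± 0.0462 and 1.03 CPM ± 0.111. KAZN-IT5, in a gene of a protein of skin cell junctions, had 7.86, 9.05 and 8.58 CPM against a highest dry value of 6.43 CPM.

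NPAS3-IT2, in the gene of a brain transcription factor, had 0.814, 0.955 and 0.856 CPM against 0.165, 0.221 and 0.257 CPM, and NPAS3 had a mean of 2.49 CPM in both states. HS6ST3-IT1, in the gene of a heparan sulfate sulfotransferase, had 1.57 CPM ± 0.0991 against 0.672 CPM ± 0.0655, and TESC-IT1, in the gene of a calcium-binding protein, 0.892 CPM ± 0.0835 against 0.364 CPM ± 0.143. GNAO1-IT1, in the gene of a G protein subunit of neurons, went the other way, with 0.277, 0.245 and 0.226 CPM in lactating and 0.557, 0.637 and 0.774 CPM in dry goats. All 6 of these members kept an adjusted p under 0.05 under each alternative run, but several lie below the level of 3 counts in a shallow library.

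The ratio of member to host differed by state in 212 of 3953 pairs (5.36%), 169 higher and 43 lower in lactating goats, against 5.92% of 7551 pairs (3.73% higher and 2.19% lower). With a prior count of 0.5 in place of 2 the count was 53, leaving out any 1 goat left 7 (goat 64) to 83 (goat 6), and without the libraries closest to another tissue the count was 86. The excess of higher ratios was not kept throughout: 43 of these 86 were higher, as were 1 of 7 without goat 64, 7 of 16 without goat 73 and 44 of 74 without goat 2. In 33 of the 43 with a lower ratio the host was called higher, and in 95 of the 169 with a higher ratio it was called lower. FKBP5 and ZBTB16, both known as genes induced by glucocorticoids, were examples of a lower ratio that were chosen after their values were seen. FKBP5 averaged 17.6, 12.2 and 13.8 CPM in lactating and 4.10, 3.48 and 4.95 CPM in dry goats, while FKBP5-IT1 had 0.278 CPM ± 0.116 and 0.253 CPM ± 0.119. The goat means of FKBP5-IT1 over 33 tissues ran from 0.139 to 0.401 CPM, and 3 counts in the deepest single library are 0.335 CPM. At such low levels a change of FKBP5-IT1 itself could be missed. The ratio fell by 1.47 log2 units where FKBP5 rose by 1.53. ZBTB16 averaged 13.3, 12.7 and 10.1 CPM against 3.39, 3.77 and 4.52 CPM. Its most abundant member, ZBTB16-IT2, rose less, with 24.1, 26.4 and 21.0 CPM against 13.5, 19.3 and 17.1 CPM, and the ratio to the host fell by 1.13 ± 0.141 log2 units. ZBTB16-IT4 had 7.38 CPM ± 0.437 against 5.85 CPM ± 0.432, and its ratio fell by 1.06 ± 0.166. The less abundant members varied: ZBTB16-IT3 had 1.16 CPM ± 0.304 against 0.400 CPM ± 0.240 and ZBTB16-IT1 0.407 CPM ± 0.0826 against 0.0586 CPM ± 0.0482. ZBTB16-IT5 had 0.177 CPM ± 0.0368 against 0.0227 CPM ± 0.0328 and ZBTB16-IT6 0.0605 CPM ± 0.0146 against 0.0158 CPM ± 0.0190. ZBTB16-IT7 had 0.239 CPM ± 0.0829 against 0.240 CPM ± 0.0464. ZBTB16-IT1, ZBTB16-IT5 and ZBTB16-IT6 were too low to test.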

How the data were processed

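The 33 tissues of 6 goats were sequenced from strand-specific total RNA libraries, per the labels' protocols, and STAR, StringTie and edgeR are named in the submitters' processing notes. Versions, the genome build and whether counting used strand are not given in the sources used here. The authors deposited expected counts per gene, of which 37.0% of nonzero values (54.8% for members) are fractional. Values under 1e-06 were set to 0, and the fits used whole-number rounding. Natural log offsets that the authors deposited served as an alternative scaling, and the deposited tau is a fraction with no formula. CPM was computed from library totals. Groups come from the labels, with the goat as replicate.

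State within a tissue was tested with edgeR 4.0.16 (TMM, filterByExpr with a minimum count of 10), and goat means of log2 CPM (prior count 2, at least 1 CPM in a tissue) with limma 3.58.1 in R 4.3.3, with Benjamini-Hochberg adjustment at 0.05 over all features. Ratios used lncRNAs of the intronic, antisense, overlapping and divergent classes. Shares of counts used exact tests. The fits were tested on simulated data. Named members follow rules on abundance, tissue ratio, adjusted p, correlation to the host and number per host, and some members that meet them are not reported here. The members, lists and rules were chosen with earlier results of these data known. Brain and other values of a goat are paired, since they come from the same animal, and deviations of the pairs correlated at 0.0811 to 0.255. The main limma fits of brain did not use this pairing, and the goat as a block was an alternative. Each tissue and goat has 1 library, so p-values measure the spread between goats. Alternatives changed the scaling, filter, prior count, tissues, test and goats, and the removal of libraries closest to another tissue was chosen after seeing the data.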

Additional observations from a re-analysis of the deposited data

Results flagged for a closer look

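COPG2-IT1 differed between brain and other tissues by unequal amounts among the 6 goats: 1 goat stood apart from the rest, with a gap to its neighbour of 0.629 of the whole range, against a limit of 0.625. Chance flags about 1 in 20 such groups, and 21 groups were looked at. COPG2-IT1 also went opposite ways by state in different tissues: the log2 difference of lactating against dry was -1.90 in kidney medulla, -3.13 in liver and -1.04 in neurohypophysis, and 2.34 in the libraries labelled pineal gland. SALL1-IT1 had 1.36 in kidney medulla and -5.71 in the pineal gland libraries. MTMR1-IT1 had -1.24 in adenohypophysis and 2.14 in ovary. In each case every goat of 1 state lay on the same side in 1 tissue and on the opposite side in the other, and the difference between tissues was not tested. The lactating pineal gland libraries had TPH1 near 0 and correlated best with hypothalamus or rhinencephalon. COPG2-IT1 averaged 4687 CPM in hypothalamus, 1842 CPM in rhinencephalon and 1403 CPM in the pineal gland libraries. Most adenohypophysis libraries correlated best with neurohypophysis. The part of tissue content in these opposite directions was not tested.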

How the results depend on the processing

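The calls by state in single tissues numbered 440, and 908 with the DESeq2 Wald test, 1084 with no filter and 235 to 591 when each goat was left out. Body-wide calls numbered 135, and 286 with library totals and 20 to 85 without 1 goat. Calls between brain and other tissues numbered 2521, and 1582 among members with at least 5 CPM. The ratio to the host in brain gave 2682, and 4223 with no filter and 1519 at 5 CPM. With the goat as replicate block these brain counts were 2535 and 2745, and the pairing moved no count by over 1.5 times. The ratio by state gave 212, and 53 with a prior count of 0.5, 86 without the libraries closest to another tissue, and 7 to 83 without 1 goat. The median correlation to the host was 0.356, and 0.226 with TMM, 0.303 at 5 CPM, 0.305 in lactating goats, 0.311 in dry goats, 0.384 as Pearson's r, 0.378 without brain, 0.334 without the libraries closest to another tissue, and 0.333 to 0.350 without 1 goat. The share of counts in brain exceeded that in other tissues by 1.05 to 1.22 points with 5 goats, where the smallest possible p is 0.0625. Median tau was 0.425, and 0.269 with a pseudocount of 0.1, 0.665 with no filter, 0.277 at 5 CPM and 0.446 by the authors. Fewer members were tested at 5 CPM and fewer goats entered the fits without 1 goat. Leaving out a goat did not always lower a count, since calls by state in single tissues rose to 591 without goat 73. The cause of these and the other changes was not tested. All 40 tested results of named members stayed past the threshold in the same direction under the alternatives run for them. Removal of libraries closest to another tissue was not run for state in pineal gland, adenohypophysis and neurohypophysis, where too few libraries remained. Low counts limit what can be shown: 2216 members stayed under 1 CPM in every tissue.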
